A study of Homo sapiens with 4 samples.

Results

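Expression of 59 interferon-stimulated genes, nucleic acid sensors and interferon signalling factors was compared between PC-3-BM and parental PC-3 cells on single-colour Affymetrix gene arrays. PC-3 is a human prostate cancer line first grown from a bone metastasis and is labelled as poorly metastatic. PC-3-BM, labelled as highly metastatic, is in the study's methods a clone taken from bone lesions of athymic nude mice after repeated injection of PC-3 into the heart, with geneticin selection and sorting for green fluorescence in each round. Both lines carry firefly luciferase and green fluorescent protein, and neither was described as treated with interferon. The labels speak of growth in mice and the methods of culture, so it is not settled in which state RNA was taken. Each line had 2 numbered arrays. No source says that these were independent cultures, and the p-values therefore describe the spread between arrays, which may be technical. A difference between the lines may come from the clone that was picked as well as from growth in bone, and these cannot be told apart.

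The members were chosen by gene symbol, and each was read from its brightest probe set, a group of probes summarised into 1 value, among those annotated to that symbol alone. Of the 59 members 57 had such a probe set, out of 18417 genes that did. GBP1 shares its only annotated probe set with other genes and STAT2 had none, so neither was given a value. The members were taken in 4 groups by role, as 33 antiviral effectors, 5 guanylate-binding proteins (GBPs), 8 sensors with the adaptor STING1, and 13 receptor chains, kinases and transcription factors.

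Interferons are secreted proteins that cells release when foreign or misplaced nucleic acid is sensed. RIGI and IFIH1 recognise double-stranded RNA, while CGAS and IFI16 recognise DNA and signal through STING1. Type I interferons bind IFNAR1 and IFNAR2, and the kinase JAK1 then leads to a complex of STAT factors with IRF9 that binds the interferon-stimulated response element (ISRE) in promoters of target genes. Interferon-gamma binds IFNGR1 and IFNGR2 and signals through JAK1 and JAK2. In tumour cells, interferon-stimulated genes can also be expressed at a steady level without added interferon.

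The ISRE is the sequence feature that most effectors share, and it is shown here for members with and without a difference between the lines. The core GAAANNGAAA was searched on both strands in RefSeq promoter windows of 300 bases (GRCh38.p14), which run from 250 bases before to 50 after the transcription start. A window was at hand for 42 of the measured members. The core was found in 25 of them, or 59.5%, against 3.65% of all 27305 RefSeq promoters, and by role in 19 of 27 effectors, 2 of 2 GBPs, 3 of 5 sensors and 1 of 8 signalling factors. The windows below carry the cores in capitals with 25 bases on either side, each read along its gene, and a core on the other strand reads TTTCNNTTTC. The first 3 belong to genes that were higher in PC-3-BM, the next pair to their chromosomal neighbours that were not called, and the last pair to genes that were lower. Each was taken from RefSeq, and a match of letters is a description and not a measured site.
IFI44, chr1:78649746-78649805, plus strand: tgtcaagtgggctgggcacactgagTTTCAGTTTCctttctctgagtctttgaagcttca
IFIT1, chr10:89392482-89392554, plus strand: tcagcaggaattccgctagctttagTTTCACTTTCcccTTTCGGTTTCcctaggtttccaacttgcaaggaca
SAMD9, chr7:93118081-93118140, minus strand: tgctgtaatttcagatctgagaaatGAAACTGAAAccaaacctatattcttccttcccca
IFI44L, chr1:78620259-78620409, plus strand: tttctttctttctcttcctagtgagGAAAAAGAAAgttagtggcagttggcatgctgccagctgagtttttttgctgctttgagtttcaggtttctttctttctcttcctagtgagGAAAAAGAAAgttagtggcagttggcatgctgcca
IFIT5, chr10:89414498-89414598, plus strand: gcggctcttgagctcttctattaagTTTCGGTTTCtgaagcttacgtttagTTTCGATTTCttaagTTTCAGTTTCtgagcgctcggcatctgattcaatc
ISG15, chr1:1013359-1013424, plus strand: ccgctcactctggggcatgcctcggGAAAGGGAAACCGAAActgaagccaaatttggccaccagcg
DTX3L, chr3:122564307-122564366, plus strand: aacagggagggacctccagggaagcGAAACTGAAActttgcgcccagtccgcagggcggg

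The interferon genes did not move as 1 block between the lines. PC-3-BM had more IFI44, IFIT1, IFIT2, IFIT3, IFI6, HERC5, SAMD9, OASL, GBP2 and GBP3, more of the sensors RIGI, CGAS and IFIH1, and more IRF9, IRF1, IRF2, JAK1 and JAK2. It had less IFI16, USP18, DTX3L, OAS2, IFI35, ISG15, IFITM2 and IRF3. Of the 57 measured members 18 were higher, 8 were lower and 31 were not called in limma at an adjusted p below 0.05, the threshold for "rose" and "fell" throughout. The members' median difference was 0.01 on the log2 scale, against −0.04 over all 18417 genes.

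These counts stand beside a background in which much of the transcriptome differed. Of all 33297 probe sets 23.2% were called. By brightest probe set, 29.6% of all genes were called, 14.8% higher and 14.8% lower, against 45.6% of the measured members, 31.6% higher and 14.0% lower. The members' share was thus above the background for higher calls and near it for lower calls. In at least 1 line 44 members lay above a log2 level of 6.07, the dim range described with the arrays. Of these 44 members 17 rose (38.6%) and 8 fell (18.2%). Of all genes above that level in at least 1 line 19.4% rose and 19.4% fell, or 38.8% called. The arrays of the lines did not overlap for 45 of the 57 members, against 70.6% of all genes. At the study's thresholds (adjusted p below 0.001 and a log2 difference above 2 in size) 0.0511% of probe sets, 0.0814% of genes and 0 members were called. IFI16 missed the first of these with an adjusted p of 0.001003 (limma). An unadjusted p below 0.05 (limma) was found for 36 of the 57 members, against 8010 of all 18417 genes. Leaving out PC-3-BM array 1, PC-3-BM array 2, PC-3 array 1 or PC-3 array 2 left 13, 15, 9 and 9 called members, and IFI44, IFIT1, IFIT2, SAMD9, USP18, GBP2 and IFI16 kept their calls and directions each time.

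Arrays of 1 line correlated at 0.996 to 0.997 across probe sets and those of different lines at 0.983 to 0.985. The array medians lay between 6.66 and 6.72, and no array stood apart from its line. The epithelial keratins KRT18 and KRT19 were at or above 10.3 on all arrays. All 4 epithelial markers fell in PC-3-BM, KRT8 by 2.03, EPCAM by 1.30, KRT18 by 0.40 and KRT19 by 0.33 on the log2 scale. The luminal prostate markers KLK2 and KLK3 were between 5.64 and 6.07. Because RMA, the robust multichip average behind these log2 values, gives no detection call, 361 olfactory receptor genes served to describe the dim range, with a 95th percentile of 6.07. Of 14 measured markers of blood, stroma and endothelium 2 rose (14.3%, against 14.8% of all genes) and 0 fell. The 2 were PECAM1 and LUM. PECAM1 lay above the dim range in both lines, at 6.80 and 6.76 in PC-3-BM and 6.28 and 6.38 in PC-3. It rose by 0.45 (SE 0.07, limma, adjusted p = 0.0161). LUM lay in the dim range in both lines, at 4.15 and 4.04 in PC-3-BM and 3.50 and 3.63 in PC-3. The summed log2 level of the 14 was 73.4 to 73.6 on the PC-3-BM arrays and 73.1 to 73.2 on the PC-3 arrays. In both lines 11 of the 14 lay in the dim range, and none can be at 0 on this scale. Of the 361 olfactory receptor genes that describe this range 1.94% rose. The part of other cells in the results was not tested. In a bulk sample, fewer cells of a kind and less RNA per cell cannot be told apart.

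**Figure D1:**
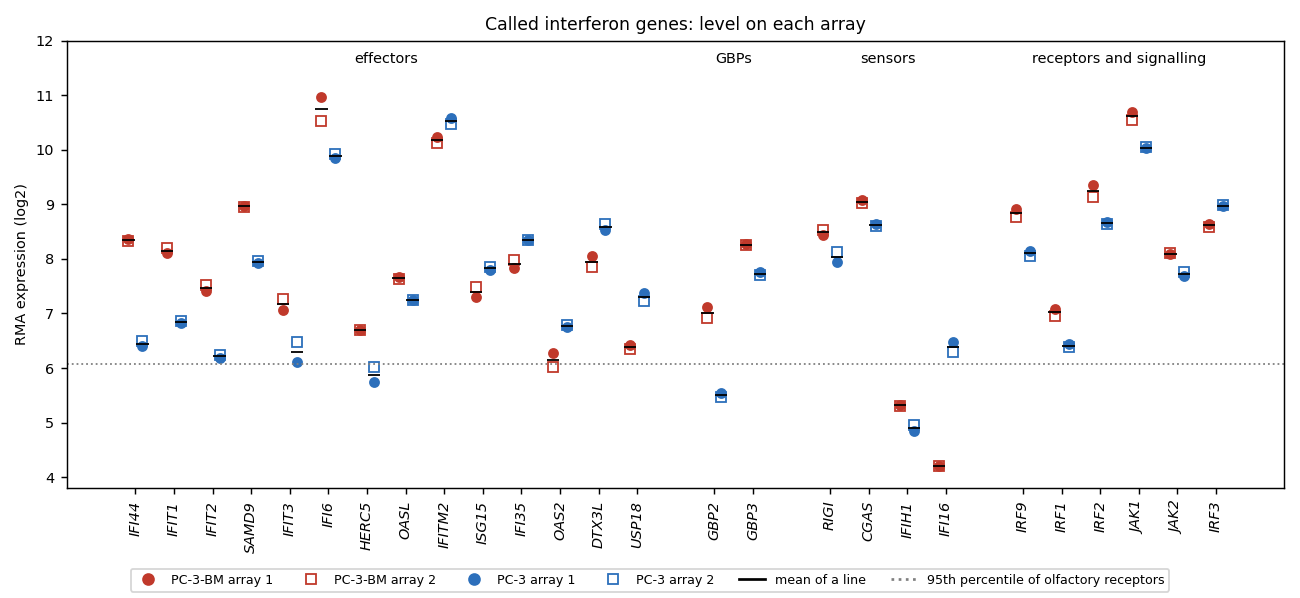
RMA expression (log2, vertical axis) of the 26 called members on each array. Red marks are PC-3-BM and blue marks PC-3, filled circles array 1 and open squares array 2, with a black bar at each line's mean. The dotted line is the 95th percentile of olfactory receptor genes (6.07). Below it lie IFI16 on the PC-3-BM arrays, GBP2 and HERC5 on the PC-3 arrays, IFIH1 on all arrays and OAS2 on PC-3-BM array 2.

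Among the effectors, IFI44, IFIT1 and IFIT2 had the largest gains. Of the 33 effectors 8 rose (24.2%), 6 fell (18.2%) and 19 were not called, against 14.8% of all genes in either direction. Their median difference was −0.06. With only the 1-symbol probe sets in the fit, 8 effectors rose and 11 fell, with the same median. In that fit 3694 of all 19460 probe sets rose and 4049 fell, a larger share than in the main fit. The balance of calls thus depends on the fit, while the differences were the same. IFI44, an interferon-induced protein with a GTP-binding domain, had log2 levels of 8.37 and 8.32 on the PC-3-BM arrays, against 6.40 and 6.49 on the PC-3 arrays. All PC-3-BM values lay above all PC-3 values, and IFI44 rose 3.72-fold (log2 difference 1.90, SE 0.07, limma, adjusted p = 0.001003). IFI44L, its paralogue and next measured gene on chromosome 1, was at 8.43 and 8.15 on the PC-3-BM arrays, against 8.35 and 8.21 on the PC-3 arrays. The groups overlapped for IFI44L, which differed by 0.01 (SE 0.12, limma, adjusted p = 0.976). Whether the 2 paralogues differed from each other in their response was not tested. Both hold the ISRE core in the windows printed above, 18 bases before the start in IFI44 and 164 and 73 bases before it in IFI44L.

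The IFIT proteins bind foreign RNA and stop its translation, with IFIT1 reading the cap. IFIT1 stood at 8.10 and 8.20 on the PC-3-BM arrays, against 6.82 and 6.86 on the PC-3 arrays, and rose 2.48-fold (1.31, SE 0.07, limma, adjusted p = 0.00183). For IFIT2 the levels were 7.42 and 7.53 in PC-3-BM and 6.19 and 6.25 in PC-3, a 2.39-fold gain (1.26, SE 0.08). For neither gene did the arrays of the lines overlap. IFIT3, which binds and stabilises IFIT1, was at 7.07 and 7.27 in PC-3-BM and 6.12 and 6.48 in PC-3, with the widest spread among PC-3 arrays in this family, and rose 1.83-fold (0.87, SE 0.15, limma, adjusted p = 0.0173). IFIT3 kept its call without PC-3 array 2 (limma, adjusted p = 0.0424), and not without PC-3-BM array 1, PC-3-BM array 2 or PC-3 array 1 (limma, adjusted p = 0.0552, 0.0761 and 0.0667). IFIT5, next to IFIT1, was at 7.70 and 7.59 in PC-3-BM and 7.45 and 7.50 in PC-3, without overlap but not past the test (0.17, SE 0.08, limma, adjusted p = 0.193). It carries 3 ISRE cores, against 2 each in IFIT1 and IFIT3.

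Further gains among the effectors were those of SAMD9, IFI6, HERC5 and OASL. SAMD9, which restricts poxviruses and slows cell growth, was at 8.97 and 8.96 in PC-3-BM and 7.92 and 7.97 in PC-3 (2.03-fold, 1.02, SE 0.07, limma, adjusted p = 0.00238). The levels of its paralogue SAMD9L were 7.82 and 7.86 in PC-3-BM and 7.68 and 7.61 in PC-3, and it was not called (0.20, SE 0.07, limma, adjusted p = 0.114). Both pairs of arrays were thus ordered the same way, with a smaller difference for SAMD9L. IFI6, a small membrane protein that limits flavivirus replication, was at 10.97 and 10.52 in PC-3-BM and 9.84 and 9.92 in PC-3. It rose 1.82-fold (0.86, SE 0.16, limma, adjusted p = 0.0221) with a wide gap between the PC-3-BM arrays, and it kept no call without PC-3 array 1 or PC-3 array 2 (limma, adjusted p = 0.118 and 0.104). OASL, a catalytically inactive relative of the oligoadenylate synthetases that enhances RIGI signalling, was at 7.67 and 7.64 in PC-3-BM and 7.24 and 7.24 in PC-3. It rose 1.33-fold (0.41, SE 0.07), and its call was lost when any 1 array was left out (limma, adjusted p = 0.0623 to 0.0862).

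The genes of ISG15 conjugation went different ways. ISG15 is a ubiquitin-like protein that is attached to other proteins by the enzymes UBA7, UBE2L6 and HERC5 and removed by USP18, which also restrains signalling at IFNAR2. HERC5 was at 6.70 and 6.70 in PC-3-BM and 5.74 and 6.02 in PC-3, where its mean lay in the dim range, so that the size of its 1.76-fold rise is uncertain (0.82, SE 0.11, limma, adjusted p = 0.0100). USP18 was at 6.42 and 6.34 in PC-3-BM and 7.38 and 7.22 in PC-3, and fell by 0.92 on the log2 scale (SE 0.09, limma, adjusted p = 0.00428). It had the largest fall among the called effectors, and the arrays of the lines did not overlap. ISG15 itself was at 7.31 and 7.48 in PC-3-BM and 7.80 and 7.85 in PC-3 and fell by 0.43 (SE 0.09, limma, adjusted p = 0.0271). UBA7 and UBE2L6 differed by 0.21 and 0.14 (limma, adjusted p = 0.235 and 0.346), and HERC6, in the dim range in both lines, by 0.01. The HERC5 call ended without PC-3-BM array 1 or PC-3-BM array 2 (limma, adjusted p = 0.0555 and 0.0518). The ISG15 call remained without PC-3-BM array 2 (limma, adjusted p = 0.0473) and ended without PC-3-BM array 1, PC-3 array 1 or PC-3 array 2 (limma, adjusted p = 0.102, 0.111 and 0.131).

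The other effectors that fell were DTX3L, OAS2, IFI35 and IFITM2. DTX3L, a ubiquitin ligase that works as a complex with the ADP-ribosyltransferase PARP9, was at 8.05 and 7.85 in PC-3-BM and 8.52 and 8.63 in PC-3 (−0.63, SE 0.10, limma, adjusted p = 0.0140). Its partner PARP9, the neighbouring gene, was at 6.58 and 6.31 in PC-3-BM and 6.79 and 7.02 in PC-3, and PARP14 on the same stretch at 8.24 and 8.03 in PC-3-BM and 8.44 and 8.38 in PC-3. All 3 were lower on each PC-3-BM array than on any PC-3 array, but PARP9 and PARP14 were not called (limma, adjusted p = 0.0694 and 0.116). OAS2, an oligoadenylate synthetase whose product activates RNase L, was at 6.28 and 6.02 in PC-3-BM and 6.74 and 6.80 in PC-3 (−0.62, SE 0.11, limma, adjusted p = 0.0186). In the same cluster on chromosome 12, OAS3 (−0.45, SE 0.14, limma, adjusted p = 0.0763) and OAS1 (0.10, SE 0.10, limma, adjusted p = 0.529) were not called. IFI35, which forms a complex with NMI, was at 7.83 and 7.97 in PC-3-BM and 8.35 and 8.35 in PC-3 (−0.45, SE 0.08, limma, adjusted p = 0.0203). DTX3L and OAS2 were called without PC-3-BM array 1 (limma, adjusted p = 0.0368 and 0.0317) and IFI35 without PC-3-BM array 2 (limma, adjusted p = 0.0451). With any other array left out these 3 genes were not called (limma, adjusted p = 0.0528 to 0.107).

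The IFITM proteins, which block fusion of viruses with endosomal and surface membranes, had 1 call among 3 genes. IFITM2 was at 10.23 and 10.13 in PC-3-BM and 10.58 and 10.47 in PC-3 and fell by 0.35 (SE 0.08, limma, adjusted p = 0.0404), a call that no single-array omission left standing (limma, adjusted p = 0.0950 to 0.170). It also ended with arrays centred on their medians (limma, adjusted p = 0.0551). IFITM1 was at 9.71 and 9.11 in PC-3-BM and 10.17 and 10.15 in PC-3, with PC-3-BM arrays far apart (−0.75, SE 0.20, limma, adjusted p = 0.0597), and it passed without PC-3-BM array 1 (limma, adjusted p = 0.0228). For IFITM3 the groups overlapped, at 10.53 and 10.41 in PC-3-BM and 10.49 and 10.48 in PC-3. The 3 sequences are near-identical in part, so that probes can be shared, and their separate values are uncertain.

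Several classical markers of an interferon response were dim and not called. MX1, MX2, RSAD2, XAF1, BST2, EPSTI1 and HERC6 lay in the dim range in both lines. MX1, a GTPase that blocks influenza virus, was at 5.75 and 5.65 in PC-3-BM and 5.71 and 5.82 in PC-3, and RSAD2 (viperin) at 4.95 and 4.83 in PC-3-BM and 5.10 and 5.19 in PC-3. No difference was called for either (limma, adjusted p = 0.635 and 0.0949), and at these levels one may not be detectable. The levels of IFI27 and CMPK2 lay between 6.11 and 6.58 on all arrays, just above the dim range. Over the 19 effectors that were not called, the differences ran from −0.75 for IFITM1 to 0.20 for SAMD9L. Leaving out PC-3-BM array 1, PC-3-BM array 2, PC-3 array 1 or PC-3 array 2 left 9, 8, 6 and 7 called effectors, the 9 with IFITM1 among them.

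**Figure D2:**
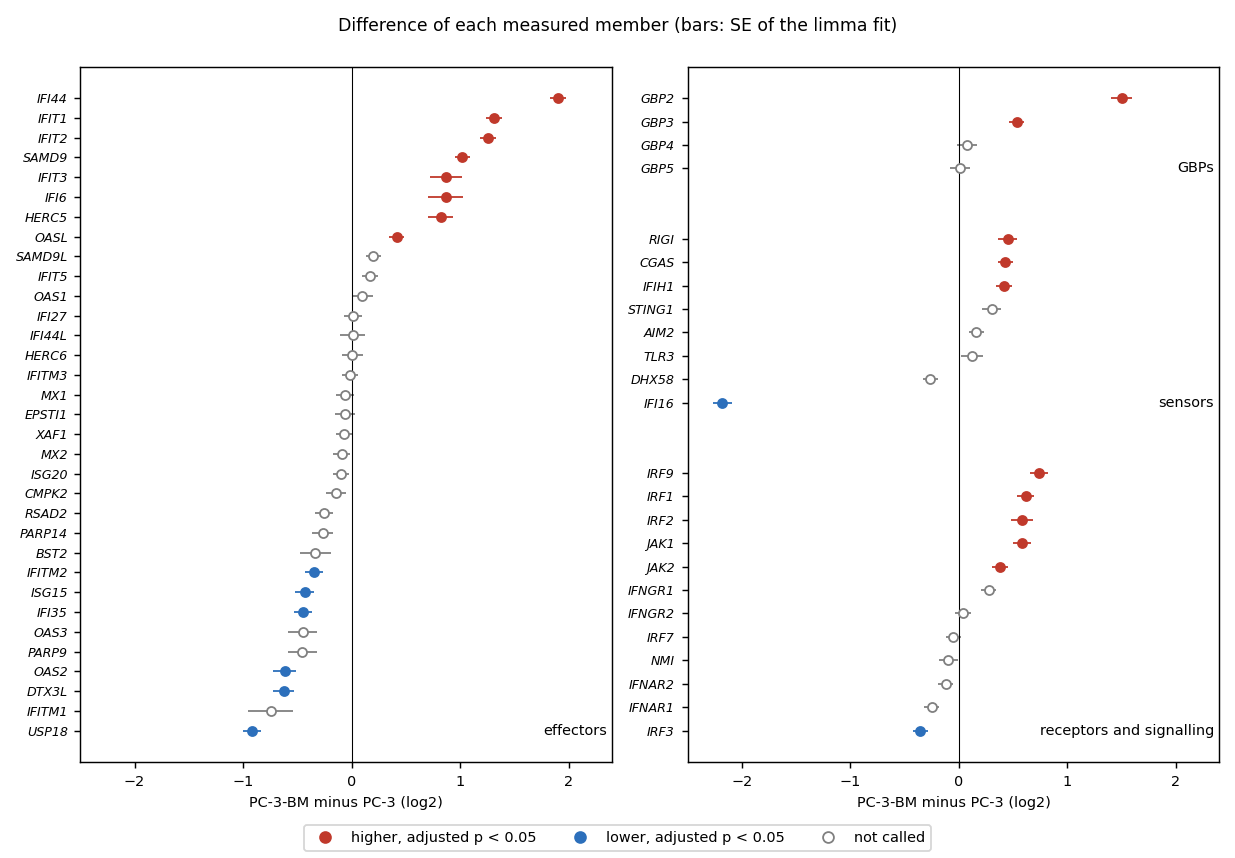
Difference of each of the 57 measured members, PC-3-BM minus PC-3 (log2, horizontal axis), with bars for the SE of the limma fit, effectors on the left and the other groups on the right. Red dots were called higher, blue dots lower, and open dots were not called. IFI44 stands at 1.90 and IFI16 at −2.18.

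The GBPs are large GTPases induced above all by interferon-gamma that attack vacuoles of intracellular pathogens. Of the 4 measured, GBP2 and GBP3 rose (50.0%, against 14.8% of all genes). GBP2 was at 7.12 and 6.91 in PC-3-BM and 5.55 and 5.48 in PC-3, a 2.83-fold rise (1.50, SE 0.10, limma, adjusted p = 0.00216). Its PC-3 values lay in the dim range, so the size of the rise is uncertain, and a second probe set of the gene gave 1.59 (SE 0.11). GBP3 was at 8.28 and 8.25 in PC-3-BM and 7.75 and 7.71 in PC-3 (1.45-fold, 0.53, SE 0.07, limma, adjusted p = 0.00844). It was called without PC-3-BM array 2 (limma, adjusted p = 0.0430) and not without PC-3-BM array 1, PC-3 array 1 or PC-3 array 2 (limma, adjusted p = 0.0515, 0.0561 and 0.0636). GBP4 and GBP5 were at 4.40 to 4.93 on all arrays, inside the dim range, with overlapping groups. GBP7, a measured neighbour of GBP2 and no member, rose by 0.67 (SE 0.08, limma, adjusted p = 0.00803).

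Of the 8 sensors RIGI, CGAS and IFIH1 rose, IFI16 fell and 4 were not called. Thus 37.5% rose and 12.5% fell, against 14.8% of all genes in either direction. IFI16, a nuclear DNA sensor that also restrains transcription of viral genomes, had the largest difference of any member. It was at 4.21 and 4.21 on the PC-3-BM arrays, against 6.47 and 6.30 on the PC-3 arrays, and fell by 2.18 on the log2 scale (SE 0.08, limma, adjusted p = 0.001003). The arrays of the lines were far apart, and the PC-3-BM level lay below the median of the olfactory receptor genes (4.56), so the size of the fall is uncertain. AIM2, the cytosolic DNA sensor of the same family and its neighbour on chromosome 1, was dim in both lines, at 3.76 and 3.80 in PC-3-BM and 3.59 and 3.65 in PC-3. None of the 20 nearest measured genes around IFI16 that are no members was called, against 29.6% of all genes. These 20 had a median difference of −0.04.

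CGAS, which makes the messenger cGAMP from cytosolic DNA, was at 9.07 and 9.03 in PC-3-BM and 8.64 and 8.60 in PC-3 (1.35-fold, 0.43, SE 0.07, limma, adjusted p = 0.0151). Of its 20 nearest measured genes on chromosome 6, 11 rose and 0 fell, against 14.8% of all genes in either direction. The 20 had a median difference of 0.44, about as large as that of CGAS. STING1, the receptor of cGAMP, was at 9.24 and 9.13 in PC-3-BM and 8.96 and 8.81 in PC-3 and was not called (0.30, SE 0.09, limma, adjusted p = 0.0743). RIGI was at 8.44 and 8.53 in PC-3-BM and 7.95 and 8.12 in PC-3 (1.37-fold, 0.45, SE 0.09, limma, adjusted p = 0.0271). IFIH1, encoding MDA5, was in the dim range in both lines, at 5.32 and 5.31 in PC-3-BM and 4.85 and 4.95 in PC-3 (0.42, SE 0.07, limma, adjusted p = 0.0188). For RIGI, CGAS and IFIH1 the arrays of the lines did not overlap, but each call was lost when any 1 array was left out (limma, adjusted p = 0.0594 to 0.118), so that with 1 array fewer only IFI16 of the sensors remained. DHX58, a regulator of the RNA sensors, and TLR3, the endosomal receptor of double-stranded RNA, were dim and not called (−0.27 and 0.12, limma, adjusted p = 0.0520 and 0.443).

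None of the 4 receptor chains passed the test. IFNAR1 was at 9.33 and 9.34 in PC-3-BM and 9.62 and 9.55 in PC-3, and IFNAR2 at 7.92 and 7.84 in PC-3-BM and 8.01 and 7.98 in PC-3. IFNGR1 was at 8.59 and 8.62 in PC-3-BM and 8.30 and 8.37 in PC-3, while IFNGR2 overlapped between 9.31 and 9.41. The differences ran from −0.25 for IFNAR1 to 0.27 for IFNGR1 (limma, adjusted p = 0.0644 and 0.0520). Of the kinases below them JAK1 and JAK2 rose, and TYK2, which pairs with JAK1 at the type I receptor, was not called (0.07, SE 0.07, limma, adjusted p = 0.501). JAK1, used by both receptor types, was at 10.70 and 10.54 in PC-3-BM and 10.03 and 10.05 in PC-3 (1.50-fold, 0.58, SE 0.08, limma, adjusted p = 0.0111). JAK2, used by the interferon-gamma receptor, was at 8.09 and 8.11 in PC-3-BM and 7.68 and 7.76 in PC-3 (1.30-fold, 0.38, SE 0.07, limma, adjusted p = 0.0232).

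Among the interferon regulatory factors IRF9, IRF1 and IRF2 rose, IRF3 fell and IRF7 was not called. IRF9, the DNA-binding part of the complex that reads the ISRE, was at 8.92 and 8.77 in PC-3-BM and 8.14 and 8.06 in PC-3 (1.67-fold, 0.74, SE 0.09, limma, adjusted p = 0.00660). IRF1, an activator that interferon-gamma induces, was at 7.09 and 6.96 in PC-3-BM and 6.44 and 6.38 in PC-3 (1.53-fold, 0.62, SE 0.08, limma, adjusted p = 0.00868). IRF2, which competes with IRF1 at its sites, was at 9.36 and 9.13 in PC-3-BM and 8.68 and 8.65 in PC-3 (1.50-fold, 0.58, SE 0.10, limma, adjusted p = 0.0175). So the activator and its competitor rose together, and IRF2 did so in a stretch where 10 of 20 neighbours fell, against 14.8% of all genes. IRF3, which the sensors activate to induce interferon-beta, was at 8.65 and 8.59 in PC-3-BM and 8.97 and 8.99 in PC-3 and fell by 0.36 (SE 0.07, limma, adjusted p = 0.0245). IRF7, which amplifies type I interferon, was at 7.86 and 7.85 in PC-3-BM and 7.94 and 7.88 in PC-3. NMI, which binds STAT factors, differed by −0.10 with overlapping groups. Of the 12 measured signalling genes 41.7% rose and 8.33% fell, against 14.8% of all genes in either direction. All 12 lay above the dim range in at least 1 line, and of all such genes 19.4% rose and 19.4% fell. The signalling group had 5 genes that rose and 1 that fell of 12, and it kept 2, 4, 1 and 0 calls without PC-3-BM array 1, PC-3-BM array 2, PC-3 array 1 and PC-3 array 2. IRF9 lost its call only without PC-3 array 2 (limma, adjusted p = 0.0558). IRF1 lost it without PC-3 array 1 or PC-3 array 2 (limma, adjusted p = 0.0563 and 0.0659). IRF2 and JAK1 were called only without PC-3-BM array 2 (limma, adjusted p = 0.0310 and 0.0328), and JAK2 and IRF3 under no such omission.

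Since several members lie side by side, each was set beside the 10 nearest measured non-member genes on either side in RefSeq gene order. Over all genes 14.8% rose and 14.8% fell. Around IFI44 and IFI44L 10 of 20 neighbours rose and 0 fell, with a median of 0.28, below the 1.90 of IFI44 and above the 0.01 of IFI44L. Around GBP2 and GBP3 9 of 20 rose and 0 fell (median 0.24), and around IFIT1 6 of 20 rose and 0 fell (median 0.18). SAMD9 lay among 20 genes of which 9 rose and 1 fell (median 0.16). IFI44, GBP2, IFIT1 and SAMD9 each had a difference above the median of their surroundings. As they were picked among the members with the largest differences, this is no separate result. A single neighbour could differ as much, as TFPI2 near SAMD9 did (1.02, SE 0.09, against 1.02 for SAMD9). Around HERC5 3 of 20 rose and 2 fell. Among those that rose were HERC3, next to it, by 1.01 (SE 0.07) and FAM13A, further along, by 1.71 (SE 0.07). Around USP18 1 rose and 2 fell, and around DTX3L 8 rose and 2 fell, against its own fall. Whether gene copies differ between the lines was not tested.

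**Figure D3:**
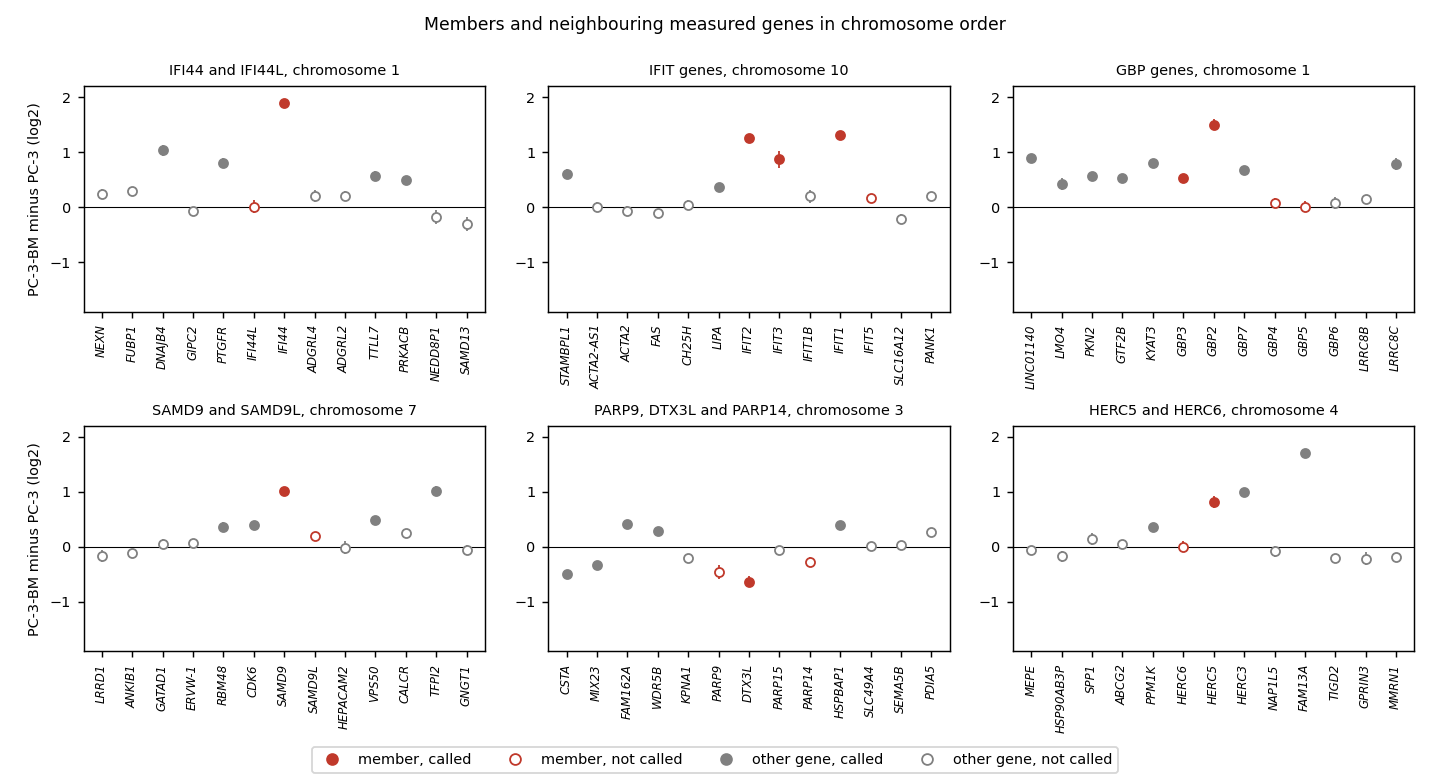
Differences between PC-3-BM and PC-3 (log2, vertical axis, with SE bars of the limma fit) at 6 loci, with measured genes in chromosome order along the horizontal axis. Red dots are members and grey dots other genes, and filled dots were called. IFI44 stands at 1.90 beside IFI44L at 0.01, and GBP2 at 1.50 beside GBP7 at 0.67.

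The ISRE core was then set beside the differences. Among the 25 members with the core in the promoter window 8 rose and 2 fell, with a median of 0.01, and among the 17 without it 5 rose and 2 fell, with a median of 0.04. Among effectors, 6 of 19 with the core rose and 2 fell, while 0 of 8 without it rose and 1 fell. The effectors that rose and had a window were IFI44, IFIT1, SAMD9, IFIT3, IFI6 and HERC5, and IFIT2, OASL, USP18 and GBP2 had none in the table used. Outside the members, 408 measured genes hold the core, of which 70 rose (17.2%) and 49 fell (12.0%), near the 14.8% of all genes in either direction. The core of the interferon-gamma site, TTCNNNGAA, which reads the same on both strands, lay in 12 of 42 member windows (28.6%), against 7.88% of all RefSeq promoters, among them IRF1, IRF9 and GBP3. Both motifs were found in 8 member windows, among them those of GBP3 and PARP14, and in 4 of these windows the matches shared bases.

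**Figure D4:**
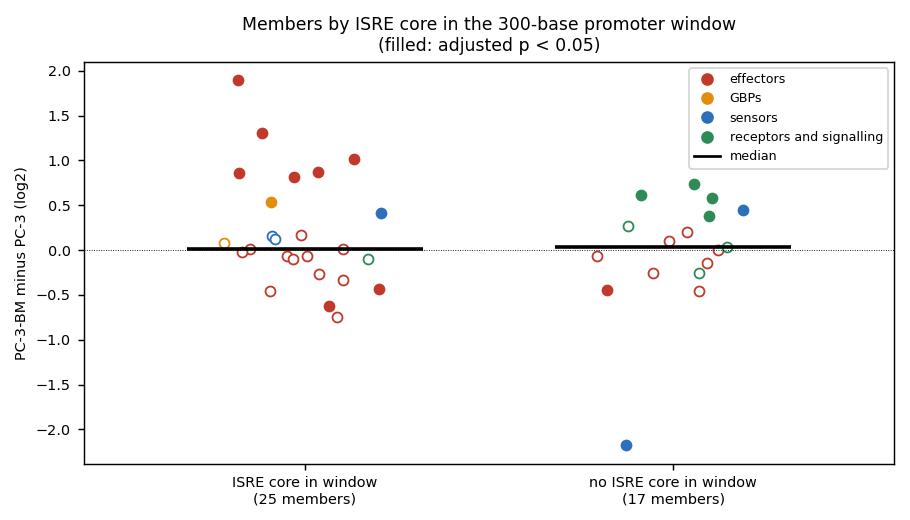
Difference between PC-3-BM and PC-3 (log2, vertical axis) of members with and without the ISRE core in the 300-base promoter window. Colours mark the 4 groups, filled dots were called and black bars are medians, 0.01 for the 25 members with the core and 0.04 for the 17 without it.

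Other genes of the pathway were taken from lists, which were chosen with earlier results of these data known. Apart from the interferon genes, those named below are the called genes with the largest differences in each list. Antigen presentation genes are interferon targets that process and load peptides. Of 13 measured 2 rose (15.4%) and 4 fell (30.8%), with a median of −0.06, against 14.8% of all genes in either direction. The immunoproteasome subunit PSMB8 was at 5.75 and 5.81 in PC-3-BM, in the dim range, and 6.61 and 6.70 in PC-3 (−0.88, SE 0.07, limma, adjusted p = 0.00355), and the peptide transporter subunit TAP2 was at 7.91 and 7.95 in PC-3-BM and 8.69 and 8.84 in PC-3 (−0.83, SE 0.08, limma, adjusted p = 0.00472). Both fell with no overlap, as did TAP1 (−0.38) and the proteasome activator PSME2 (−0.44). The trimming peptidase ERAP1 rose by 0.55 and tapasin (TAPBP) by 0.36. Without PC-3-BM array 1, PC-3-BM array 2, PC-3 array 1 or PC-3 array 2 this list had 2, 3, 2 and 2 calls, always with PSMB8 and TAP2 among them.

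Of 60 further measured interferon pathway genes 9 rose (15.0%) and 17 fell (28.3%), with a median of −0.08, so that the share that rose was near the 14.8% of all genes and the share that fell was above it. The tryptophan-degrading enzyme IDO1 was at 7.36 and 7.36 in PC-3-BM and 6.15 and 6.14 in PC-3 (2.32-fold, 1.21, SE 0.07, limma, adjusted p = 0.00169), and the nuclear body protein SP100 rose by 1.05 (SE 0.07). The falls were led by TRIM21, a cytosolic antibody receptor (−1.34, SE 0.10), the cytidine deaminase APOBEC3C (−1.21, SE 0.07), the interferon-lambda receptor chain IFNLR1 (−1.01, SE 0.08) and the nucleotide hydrolase SAMHD1 (−1.01, SE 0.07). TRIM21 lay in the dim range in PC-3-BM and IFNLR1 as well, so the sizes of their falls are uncertain. Each of these 6 genes was called with any 1 array left out, while the list as a whole had 13 and 11 calls without PC-3 array 1 and PC-3 array 2. Of the 8 measured interferon genes 0 rose and 1 fell in limma, against 14.8% of all genes in either direction. An unadjusted p below 0.05 (limma) was found for 1 of the 8, against 8010 of all 18417 genes. In both lines 4 of the 8 lay in the dim range. IFNB1 was at 4.34 and 4.16 in PC-3-BM and 4.30 and 4.35 in PC-3, and IFNG at 4.06 and 4.05 in PC-3-BM and 4.08 and 4.16 in PC-3, all in the dim range. IFNE, which epithelia express without infection, fell by 0.34 (SE 0.07, limma, adjusted p = 0.0292). It was at 5.98 and 5.91 in PC-3-BM, in the dim range, and 6.28 and 6.28 in PC-3, so the size of its fall is uncertain. IFNL3 was at 8.22 and 8.05 in PC-3-BM and 8.45 and 8.27 in PC-3 and was not called (limma, adjusted p = 0.191).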

How the data were processed

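The authors hybridised amplified, labelled total RNA to Affymetrix Human Gene 1.0 ST arrays and deposited log2 expression values made with RMA, which corrects background, equalises array distributions and summarises probes. Their processing notes list R 3.2 and limma 3.24. The deposited table held 33297 probe sets on 4 arrays and was used as it stood, and the build behind its annotation is not given in the sources used here. Of the probe sets 19460 carried 1 gene symbol in the platform annotation and 1754 several. Sequences came from RefSeq (GRCh38.p14).

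PC-3-BM minus PC-3 was fitted in limma 3.58.1 (R 4.3.3) with empirical Bayes moderation (2.88 prior and 2 residual degrees of freedom) and p-values adjusted across the whole table by Benjamini-Hochberg. For a single gene, permuting 2 against 2 arrays exactly gives a two-sided p of 0.333 at the lowest. The number of arrays limits the precision. The fit was tested on simulated data. Members, lists, the ISRE core and the naming rule (called members with the largest differences per group, and up to 6 genes of each other list) were chosen with earlier results of these data known. The second motif, the ISG15 genes, the neighbouring genes and further members named were chosen later. Same-numbered arrays did not deviate together (r = −0.02 across 33297 probe sets, which are not independent). Alternatives changed scaling, filters, moderation, pairing, probe set choice and arrays. Listed genes without a probe set of their own are not analysed here.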

Additional observations from a re-analysis of the deposited data

How the results depend on the processing

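Leaving out 1 array, where the lone array of a line is assumed to vary like those of the other line, changed the counts most. The called probe sets ran from 2238 to 3854 (7717 on all arrays), the called members from 9 to 15 (26), effectors from 6 to 9 (14), GBPs from 1 to 2 (2), sensors 1 each time (4), signalling factors from 0 to 4 (6), antigen presentation genes from 2 to 3 (6) and other pathway genes from 11 to 18 (26). Fewer arrays leave 1 residual degree of freedom. No member turned its direction among called values under any alternative. With the array number as a replicate block, 6473 probe sets and 25 members were called, and IFITM2 (limma, adjusted p = 0.0510) and IRF3 (limma, adjusted p = 0.0509) lost their calls while IFITM1 gained one (limma, adjusted p = 0.0423). Scaling, filters, moderation and averaging of probe sets kept the 26 called members, apart from IFITM2 under median centring. Some of these settings added calls, among all probe sets as well as members. In the main fit 18 members were higher and 8 lower, with 7717 of 33297 probe sets called. Among 1-symbol probe sets 35 members were called (20 higher, 15 lower, effectors 8 and 11), with 7743 of 19460 probe sets. With means above 5, 32 of the 50 members kept were called (20 and 12), with 8624 of 25094 probe sets. With an intensity trend 30 members were called (20 and 10), with 9004 of 33297 probe sets. At the study's thresholds 17 probe sets passed, against 84 with median centring, 29 with quantile normalisation repeated, 85 with means above 5, 83 among 1-symbol probe sets, 99 with an intensity trend and 0 with the block or an array left out. IFI16 was among them in 4 of these (84, 85, 83 and 99).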
